A study of Mus musculus with 26 samples.

Results

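Of 8584 protein-coding proximal promoter peaks in the D1 SS list of an ATAC-seq series on mouse medium spiny neurons, 8101 overlapped a peak in each of the other 7 lists. These 8101 peaks, on chromosomes 1 to 19 and X, are the constitutive open promoters described here. They were selected on measured values, namely the presence of a peak in each list, with an overlap of at least 1 bp. Their share of 94.4% is therefore a description of the selection and has no test. They were assigned by the authors to 7758 genes, of which 7433 had 1 such peak, 309 had 2 and 16 had 3 or more. By the same requirement, 60.8% of all 28568 D1 SS peaks (17382 peaks) were found in the other 7 lists.

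ATAC-seq cuts accessible DNA with a transposase that leaves sequencing adapters, so that peaks mark open chromatin. The nuclei were those of medium spiny neurons (MSNs), which make up most of the neurons in the striatum, either of the D1 type (marked by the dopamine receptor gene Drd1) or of the D2 type (marked by Drd2). Brain is the tissue given in the labels, and nucleus accumbens the region given in the title. Per cell type the groups were acute cocaine (SC), chronic cocaine followed by prolonged withdrawal (CS), relapse (CC) and baseline (SS), with 4, 4, 4 and 2 libraries in D1 and 1, 8, 1 and 2 in D2. Strain, age, cocaine dose and the way the nuclei were marked as D1 or D2 are not given in the sources used here. There is 1 peak list for each group and hence no replicate error: no p-value was computed, and each difference is a description of these lists.

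The lists fall into sets that cut across the groups. Patch scaffolds of the assembly carry 73, 114 and 137 peaks in the SC, CS and CC lists of D1 and 70 in D2 CS (called patch-rich below), against 7 in D2 SC, 7 in D2 CC, 4 in D1 SS and 7 in D2 SS (patch-poor). The sets are crossed when any cocaine list of D1 is set against its baseline, when D2 CS is set against D2 SS, and when the cell types are compared in SC or in CC. In those comparisons the set and the cocaine state or cell type cannot be told apart. The patch-rich lists are also those of the groups with 4 or 8 libraries and the patch-poor lists those of the groups with 1 or 2, so the set and the number of libraries cannot be told apart either. The background pileup solved from the spacing of the authors' fold values was between 1.16 reads (D1 SC) and 6.14 reads (D2 SS). The spacing fitted worst in D1 SC and D2 CS, with scores of 0.092 and 0.204 against 0.344 to 0.518 in the other lists. Values that rest on the solved pileup of these 2 lists are therefore uncertain. At the median fold of the constitutive promoters and with the genome-wide background of each list, the pileup came to between 15.8 and 48.0 reads, with a counting error between 14.4% and 25.1% for a single peak.

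A promoter is the stretch of DNA around the start of transcription on which RNA polymerase and the general transcription factors assemble. Most promoters of broadly used mammalian genes lie in CpG islands, carry binding motifs of factors such as SP/KLF, NRF1, NF-Y and ETS, and are kept free of nucleosomes in most cell types. NF-Y binds the CCAAT box and NRF1 a GC-rich palindrome, and both are known for opening chromatin at such starts. The TATA box, bound by the TATA-binding protein, marks instead a smaller group of promoters with a sharp start, many of them tissue-specific or inducible.

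The 4 highest-ranking and the 3 lowest-ranking member promoters with a sequence in the RefSeq table used are shown, because motif content differed between the ends of the ranking (the rank is the percentile of fold, averaged over the lists). Each is the stretch from 150 bases to 1 base before a RefSeq start (build GRCm38.p6), 5′ to 3′, in lower case. Capitals mark the CCAAT box (CCAAT), the GC box (GGGCGG), the NRF1 core (GCATGCGC) and the ETS core (CCGGAAG), each searched on both strands. The start shown can be an alternative one inside the annotated gene, as for Egf. In the order of the lines the stretches lie at chrX:164076494-164076643 (minus strand), chr13:35906348-35906497 (minus), chr3:129725087-129725236 (minus), chr10:82127863-82128012 (plus), chr19:10457448-10457597 (minus), chr10:80142125-80142274 (plus) and chr16:20716637-20716786 (minus).
Siah1b: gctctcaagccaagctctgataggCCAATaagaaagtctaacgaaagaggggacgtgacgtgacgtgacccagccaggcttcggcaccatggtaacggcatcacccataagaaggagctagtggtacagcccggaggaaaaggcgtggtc
Rpp40: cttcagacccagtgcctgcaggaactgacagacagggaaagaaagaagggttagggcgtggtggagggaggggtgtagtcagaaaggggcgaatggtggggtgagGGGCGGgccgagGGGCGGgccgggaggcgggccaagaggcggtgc
Egf: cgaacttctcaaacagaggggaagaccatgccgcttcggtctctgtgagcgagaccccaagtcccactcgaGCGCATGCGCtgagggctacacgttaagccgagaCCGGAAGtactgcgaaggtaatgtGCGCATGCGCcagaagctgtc
AU041133: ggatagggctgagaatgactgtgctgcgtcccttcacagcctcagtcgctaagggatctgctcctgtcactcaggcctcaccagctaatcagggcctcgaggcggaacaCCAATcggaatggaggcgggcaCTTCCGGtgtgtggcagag
Lrrc10b: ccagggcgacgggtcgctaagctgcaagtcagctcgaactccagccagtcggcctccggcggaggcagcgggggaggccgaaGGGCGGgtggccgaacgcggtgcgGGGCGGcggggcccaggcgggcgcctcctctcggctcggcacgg
Atp5d: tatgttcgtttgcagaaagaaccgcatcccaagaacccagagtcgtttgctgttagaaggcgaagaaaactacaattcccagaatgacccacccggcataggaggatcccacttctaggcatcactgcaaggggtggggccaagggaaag
Clcn2: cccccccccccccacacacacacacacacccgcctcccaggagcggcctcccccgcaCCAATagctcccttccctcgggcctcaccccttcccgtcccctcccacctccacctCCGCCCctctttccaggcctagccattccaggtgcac
Siah1b and AU041133 held 1 CCAAT box each, at 126 and 41 bases before the start. Egf held the NRF1 core on both strands of a palindrome in 2 places, with an ETS core between them. Rpp40 and Lrrc10b, from the opposite ends of the ranking, held 2 GC boxes each. None of the 4 motifs was in the Atp5d stretch, and Clcn2 held 1 CCAAT box and 1 GC box.

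Beside the 94.4% of promoter peaks, 3600 of 8299 gene-body peaks (43.4%) and 3234 of 7839 intergenic peaks (41.3%) of D1 SS met the same requirement. These shares describe the selection. The promoter class of the rule is limited to 250 bp from the start, so closeness to it is part of the selection. Within that limit the constitutive promoter peaks had a median distance of -8 bp in the authors' annotation, with quartiles of -61 and 39 bp. At the edge of the rule, the matching peak with the least overlap shared 4 bp for Shisa9, 6 bp for Cpm and for Mrpl2, 9 bp for Mn1 and 10 bp for Sccpdh. Just outside it, the gap to the missing peak was 1 bp for Cfap221 and for Map3k5, 4 bp for Tmem248, 10 bp for Azin1 and 11 bp for Sstr2. Only 22 members had a smallest overlap below 50 bp, and the median over members was 572 bp.

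The 483 promoter peaks that missed a list were weak and narrow in D1 SS. Their median fold was 3.64 and their median width 253 bp, against 5.32 and 610 bp for members, and their median fold percentile in D1 SS was 16.9 against 69.0. Of the 483, 310 missed a single list, and for 148 of these that list was D1 SC and for 145 D2 CS. These lists had the lowest solved background pileup (1.16 and 2.22 reads), from the weakest fits of the spacing. The part of depth in these misses was not tested.

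Within its own list, a constitutive promoter was usually among the stronger peaks. The rule requires a peak in all 8 lists, which favours strong peaks of any class, so these percentiles describe the selection too. The median percentile of fold among all peaks of the list was 78.5 in D1 SC, 86.5 in D1 CS, 88.8 in D1 CC and 69.0 in D1 SS, and 83.3 in D2 SC, 78.6 in D2 CS, 84.2 in D2 CC and 84.9 in D2 SS. D1 SS, the list that chose the members, had the lowest of the 8 medians, but the order depends on the length of the lists. With all lists set to equal length the medians were 80.97, 79.4, 72.5 and 72.2 in D1 SC, CS, CC and SS, and 69.4, 81.2, 65.8 and 71.1 in D2 SC, CS, CC and SS, so that D1 SS was above the SC, CC and SS lists of D2. Median fold, a ratio over the peak caller's background that is not scaled between lists, was 7.81, 7.27, 7.68 and 5.32 in D1 SC, CS, CC and SS, and 7.22, 6.94, 6.73 and 6.86 in D2 SC, CS, CC and SS. Constitutive intergenic peaks had about the same median percentile as the promoters in D1 CC (87.7), D1 SS (69.2), D2 SC (84.8), D2 CC (86.8) and D2 SS (85.6), and a lower one in D1 SC (59.3), D1 CS (78.2) and D2 CS (57.3). The last 3 are patch-rich lists, as is D1 CC, in which the 2 kinds of peak differed little. Constitutive gene-body peaks had the lowest medians of the 3 classes in every list, between 51.5 (D2 CS) and 82.0 (D1 CC).

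Width set the promoters apart in all 8 lists. Their median width was 695, 842, 969 and 610 bp in D1 SC, CS, CC and SS, and 790, 728, 881 and 839 bp in D2 SC, CS, CC and SS. The medians over all peaks of the same lists were 489, 512, 555 and 504 bp in D1 and 547, 455, 563 and 555 bp in D2, so the promoters were wider in 8 of 8 lists. Constitutive gene-body peaks, which met the same requirement of recurrence, had medians of 527, 644, 730 and 543 bp in D1 and 663, 483, 708 and 682 bp in D2, and were narrower than the promoters in each list.

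**Figure D1:**
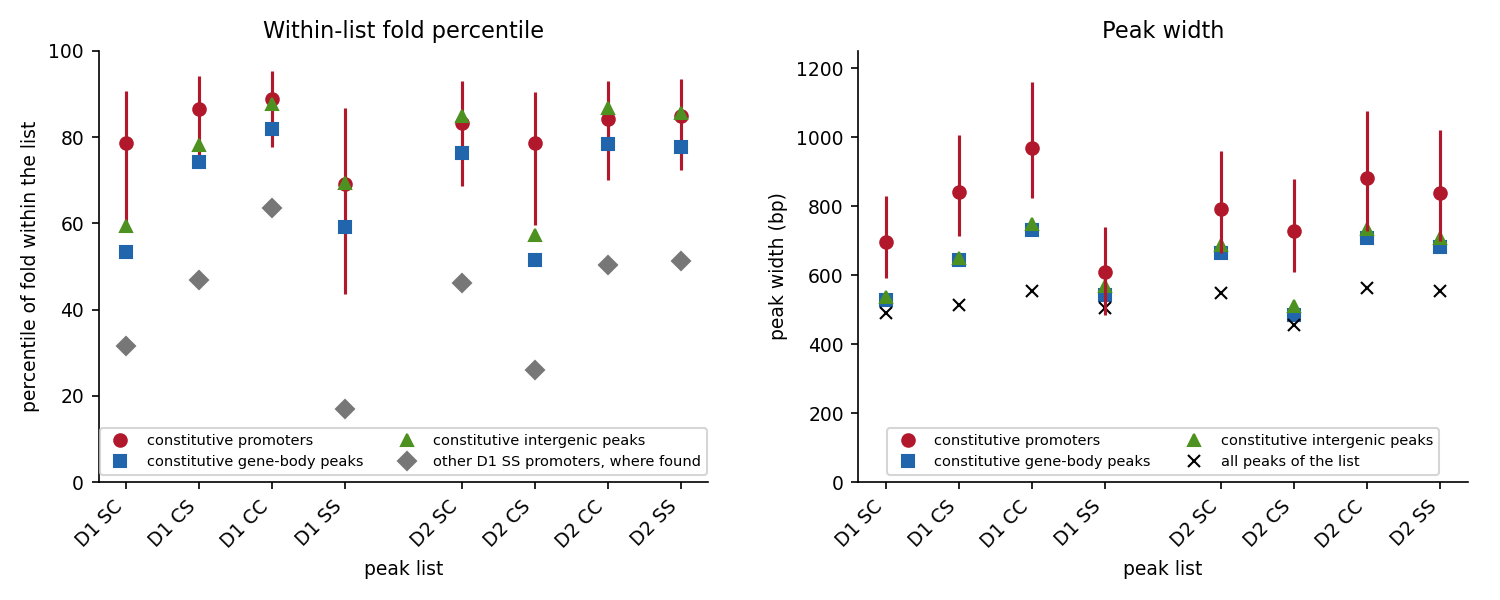
The left panel plots the median percentile of fold within each list and the right panel the median peak width in bp, for the 8 lists. Vertical lines are the quartiles over the 8101 constitutive promoters. The promoters' medians lie between 69.0 and 88.8 on the left and between 610 and 969 bp on the right, where they are above the gene-body, intergenic and all-peak medians in every list.

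Among the widest peaks were those of Cpeb2 and Sp3. Cpeb2, a cytoplasmic polyadenylation element binding protein that regulates translation, had widths of 2172, 2075, 2634 and 2068 bp in D1 SC, CS, CC and SS, and 2571, 2107, 2678 and 2660 bp in D2 SC, CS, CC and SS. It was wide in all 8 lists. For Sp3, a zinc finger factor that binds GC boxes, the widths were 916, 2146, 2195 and 867 bp in D1 and 2185, 1764, 2301 and 2242 bp in D2. Its peak in D1 SC and D1 SS covered under 1 kb and in the other 6 lists over 1.7 kb. Usp9x, a deubiquitinase, Zbtb14, a zinc finger repressor, and Rims2, an organiser of the presynaptic active zone, completed the 5 widest, with median widths of 2009, 1939 and 1894.5 bp. The 5 narrowest were Gm10717, Myt1l, Efcab6, Aga and Hdac10, with medians between 223.5 and 268 bp. Myt1l, a neuronal zinc finger factor that represses other cell fates, measured 227, 209, 899 and 200 bp in D1 SC, CS, CC and SS, and 237, 246, 1116 and 773 bp in D2 SC, CS, CC and SS. It reached 773 bp or more in 3 lists and stayed at 246 bp or less in the other 5. In the 7 lists other than D1 SS, 174 to 240 members shared a matching peak with another member.

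To compare the same peaks between lists, the fold of each was ranked as a percentile among the 17382 peaks of any class found in all 8 lists (0 lowest, 100 highest, called rank below). The median rank of the promoters was 66.4, 64.0, 58.4 and 55.2 in D1 SC, CS, CC and SS, and 55.3, 66.7, 54.4 and 56.1 in D2 SC, CS, CC and SS. The 3 highest medians belonged to D2 CS, D1 SC and D1 CS, all patch-rich, with D1 CC next. Gene-body peaks had lower medians in all 8 lists, between 33.0 in D2 CS and 43.5 in D1 SS. Intergenic peaks had lower medians than the promoters in the patch-rich lists (41.2, 44.9 and 55.2 in D1 SC, CS and CC, and 39.2 in D2 CS) and slightly higher ones in the patch-poor lists (58.8 in D2 SC, 60.6 in D2 CC, 55.5 in D1 SS and 57.5 in D2 SS). The order of promoters was much alike between lists. Over the 8101 members, Spearman's rho between the ranks of 2 lists was between 0.668 and 0.908 over the 28 pairs, with a median of 0.796, and these values share the lists and the members. Pairs within 1 cell type and pairs across cell types had medians of 0.795 and 0.798. Pairs within a patch set and pairs across the sets had medians of 0.810 and 0.789.

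A small group of promoters was at the top in every list. Ranks of 90 or more in all 8 lists were reached by 246 members, and ranks below 10 in all 8 lists by 87 members. The same counts were not made over all constitutive peaks, so they describe the promoters alone and have no background. The 10 with the highest mean rank were Siah1b, Rpp40, Egf, Gm28551, Dctn4, AU041133, Kifap3, Sgo1, Zfp868 and Tbc1d32. Gm28551, AU041133 and Zfp868 belong to predicted or zinc finger genes with similar copies, where read mapping can be uncertain.

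Siah1b, a RING-type E3 ubiquitin ligase, had folds of 15.4, 14.4, 14.2 and 12.3 in D1 SC, CS, CC and SS, and of 15.04, 13.5, 11.96 and 13.5 in D2 SC, CS, CC and SS. Its peak measured between 888 and 1039 bp. Rpp40, a protein subunit of ribonuclease P, which trims the 5′ ends of tRNA precursors, had folds of 16.1, 13.3, 14.99 and 11.3 in D1 and 13.7, 12.4, 14.2 and 13.3 in D2. The peak assigned to Egf, the gene of epidermal growth factor, lay at chr3:129724916-129725625 (mm10), over an alternative start. Its folds were 15.3, 14.3, 13.2 and 10.8 in D1 and 14.7, 12.7, 12.8 and 13.3 in D2. A further constitutive peak of Egf, at chr3:129755044-129755845, had lower ranks, with a mean of 64.1. The ranks of Rpp40, Egf and Siah1b stayed within 0.184, 0.190 and 0.288 points over the 8 lists. A percentile has little room to vary at its upper end, so these narrow ranges do not show that the folds were steady. Kifap3, a kinesin-associated transport protein, and Sgo1, the shugoshin that protects centromeric cohesion, had mean ranks of 99.7 and 99.6.

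At the bottom, with each gene represented by its highest-ranking member, were Lrrc10b, Jakmip1, Ninj1, Rbfox3, Atp5d, Faap20, Ubxn6, Sox12, Rasgef1a and Dnmt3a. The Clcn2 stretch shown above belongs to the lower of its 2 members, with mean ranks of 0.874 and 13.2, and Clcn2 is therefore not among them. Rbfox3 encodes NeuN, the splicing factor used to sort neuronal nuclei. Its folds were 4.08, 3.01, 3.38 and 2.98 in D1 SC, CS, CC and SS, and 3.0, 2.89, 3.35 and 3.09 in D2 SC, CS, CC and SS. Its rank was below 2.4 in all 8 lists. Atp5d, the delta subunit of mitochondrial ATP synthase, had folds of 4.14, 3.03, 2.89 and 3.24 in D1 and 2.87, 3.16, 2.55 and 2.39 in D2. Dnmt3a, a de novo DNA methyltransferase, had folds of 3.12, 3.65, 3.32 and 2.92 in D1 and 3.36, 3.97, 3.27 and 3.33 in D2. Its called width was 251 bp in D1 SS and 1922 bp in D1 CC. Over the members, Spearman's rho between fold and width was between -0.0083 in D1 CC and 0.652 in D1 SS.

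**Figure D2:**
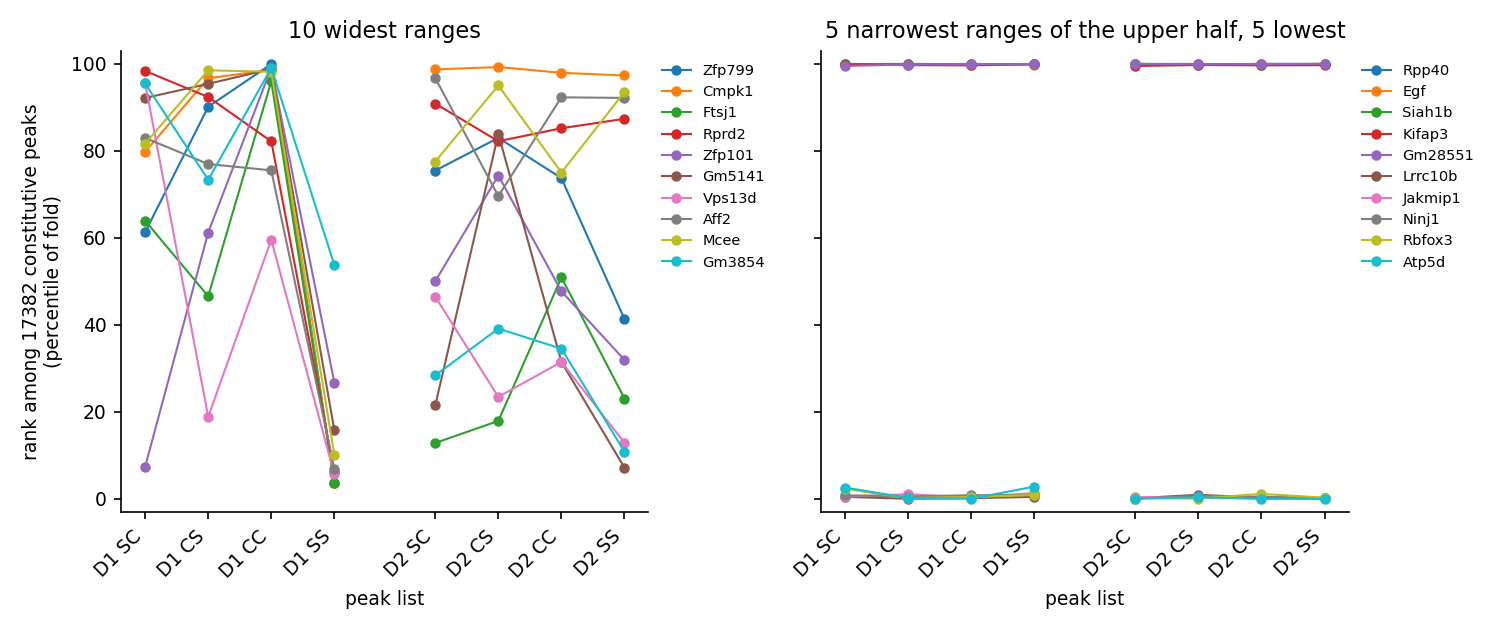
Ranks (percentile of fold among the 17382 constitutive peaks) of single promoters in the 8 lists. The left panel shows the 10 promoters with the widest range over the lists and the right panel the 5 with the narrowest range of those with a mean rank above the median beside the 5 lowest; lines join lists of 1 cell type only to guide the eye. The 5 with the narrowest ranges lie above 99 in every list, at the upper end of the scale where ranks can vary little, while the 10 on the left span 88.2 to 96.2 points.

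The gene groups were examined next. A member was found for 35.6% of 21631 RefSeq protein-coding genes. The 8 lists of basic cellular machinery lay above that share. Members were found for 23 of 30 proteasome genes (76.7%, exact Clopper-Pearson 95% interval, counting error only, 57.7% to 90.1%), 15 of 20 aminoacyl-tRNA synthetases, 21 of 28 translation factors, 15 of 20 chaperones, 21 of 30 cytosolic ribosomal protein genes, 21 of 30 spliceosome genes, 22 of 34 RNA polymerase and general transcription factor genes and 19 of 30 genes of the respiratory chain and ATP synthase. Of 222 genes in these lists, 157 (70.7%) had a member. Psmd14, the deubiquitinase of the proteasome lid, had ranks of 96.5, 82.0, 74.7 and 94.3 in D1 SC, CS, CC and SS, and 81.8, 84.6, 78.4 and 76.2 in D2 SC, CS, CC and SS. Rps3, a small-subunit ribosomal protein, was much lower, with 28.7, 57.5, 35.7 and 34.0 in D1 and 18.1, 42.8, 19.4 and 25.3 in D2. The median mean ranks of the 8 lists were between 54.9 (RNA polymerase and general transcription factors) and 72.0 (aminoacyl-tRNA synthetases), with 63.1 for the ribosomal and 61.6 for the proteasome list, against 60.4 over all genes with a member.

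Chromatin regulators (24 of 38) and genes of DNA repair and the cell cycle (15 of 22) were also members more often than all genes, although adult MSNs do not divide. The median mean rank was 71.8 for the chromatin regulators and 68.0 for DNA repair and the cell cycle.

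Neuronal gene lists held members at similar shares but at lower ranks. Members were found for 11 of 20 synaptic vesicle genes, 16 of 24 glutamate and GABA receptor genes, 10 of 16 pan-MSN genes and 12 of 20 rapid immediate-early genes, which are induced by neuronal activity within minutes. Their median mean ranks were 41.7, 26.9, 18.97 and 22.7, all below the 60.4 of all genes with a member and, for the last 3, below its lower quartile of 37.6. Ppp1r1b, which encodes the phosphatase inhibitor DARPP-32 of MSNs, had folds of 5.37, 5.81, 4.98 and 4.16 in D1 SC, CS, CC and SS, and 4.87, 4.85, 4.71 and 4.60 in D2 SC, CS, CC and SS. Grin1, the obligatory NMDA receptor subunit, ranked 34.0, 8.37, 10.4 and 27.5 in D1 and 5.0, 1.56, 16.4 and 9.40 in D2.

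Immediate-early promoters were open at baseline too, since the rule requires it. Arc, a postsynaptic capsid-like protein, had ranks of 19.8, 7.40, 2.16 and 28.5 in D1 SC, CS, CC and SS, and 23.8, 26.0, 12.6 and 8.46 in D2 SC, CS, CC and SS. The 3 cocaine lists were below baseline in D1, where they cross the patch sets, and above it in D2. The comparison of D2 CS with D2 SS crosses the sets as well. Npas4, an activity-dependent transcription factor, had ranks of 0.282, 0.164, 0.397 and 1.39 in D1 and 0.616, 12.1, 4.35 and 0.121 in D2. It was below 1.4 in all D1 lists and reached 12.1 in D2 CS. Fos, Fosb, Jund, Egr2, Egr3, Nr4a2, Ier2 and Klf4 had no member under the rule.

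Markers of both sorted cell types were examined. Members were found for 7 of 11 D1 MSN genes (Tac1, Isl1, Eya1, Sfxn1, Slc35d3, Zfp521 and Reln) and for 1 of 11 D2 MSN genes (Penk). The exact 95% intervals of these shares, 30.8% to 89.1% and 0.23% to 41.3%, overlap, and both include the 35.6% of all genes. The rule starts from a D1 list, but with D2 SS as the starting list the counts were again 7 and 1. Tac1, which encodes the substance P precursor of D1 MSNs, had ranks of 25.3, 24.4, 9.40 and 30.5 in D1 SC, CS, CC and SS, and 26.1, 33.9, 10.8 and 16.8 in D2 SC, CS, CC and SS. Penk, the enkephalin precursor of D2 MSNs, had ranks of 19.7, 4.09, 1.89 and 40.3 in D1 and 16.9, 10.4, 8.84 and 2.45 in D2. The D1 and D2 ranks of both genes overlapped. Drd1 had a promoter peak in all 8 lists but was not a member, because the centre of its D1 SS peak lay 438 bp from the start, beyond the 250 bp of the class. Drd2 had a promoter peak in all 4 D2 lists, with folds of 3.18, 4.60, 3.22 and 3.58 in D2 SC, CS, CC and SS, and in D1 CS (4.72) and D1 CC (4.45), but none in D1 SC or D1 SS.

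Promoters of genes of other cell types were rarely members. None of 11 astrocyte, 11 microglia, 10 vascular and 10 striatal interneuron markers had one, nor did any of 20 Hox and other silenced developmental genes. Oligodendrocyte lineage markers had 2 of 12 (Mbp and Olig1), cortical excitatory neuron markers 2 of 10 (Cux2 and Rorb), and liver and muscle genes 1 of 20 (Myl2). Over the 6 lists of other brain cells, 4 of 64 markers (6.25%) had a member. For a list of 10 or 11 genes a count of 0 leaves an exact upper limit of 30.9% or 28.5%. Olfactory receptors, the largest gene family in the mouse and silent outside the nose for the most part, had 0 members among 1110 genes, with an exact upper limit of 0.332%. Vomeronasal receptors had 1 of 353. Families were picked after the values were seen, and among them mitochondrial ribosomal proteins had 45 of 78, Zfp zinc finger genes 199 of 397, solute carriers 131 of 375 and potassium channels 20 of 81.

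**Figure D3:**
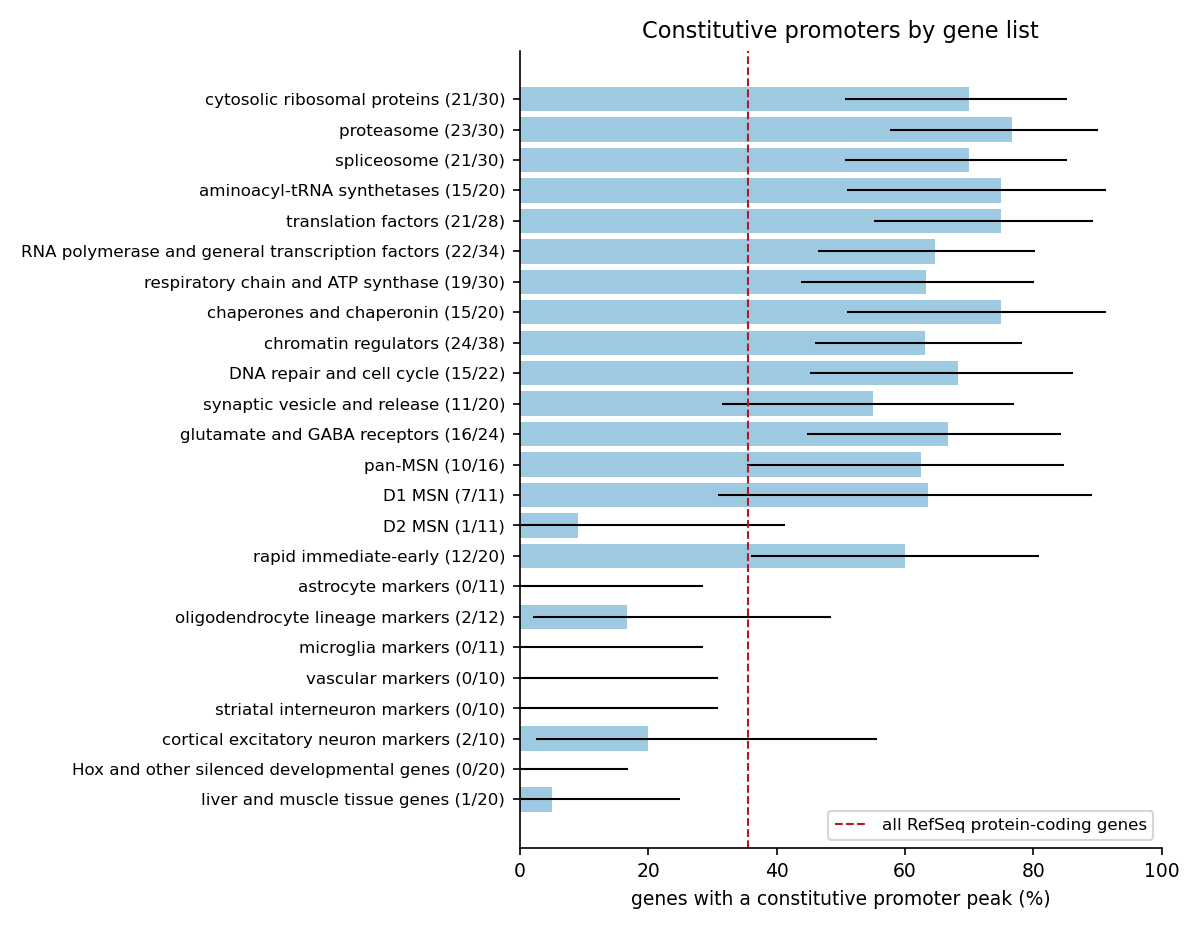
Share of genes with a constitutive promoter peak in each gene list, in percent, with exact 95% binomial intervals (counting error only) as lines and the counts in brackets. The dashed line is the share over all RefSeq protein-coding genes, 35.6%. The machinery lists lie between 63.3% and 76.7%, while the astrocyte, microglia, vascular and interneuron lists are at 0.

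Sequence was compared through the RefSeq promoter table of build GRCm38.p6, the same assembly as mm10, in which a promoter spans 250 bases before to 50 bases after a start. Such a promoter window of the assigned gene overlapped 6013 of 8101 members by at least 1 base, giving 5984 promoters. The start itself can lie outside the peak. The other members, those on chromosome 18 among them, were not analysed for sequence. The median GC content of member promoters was 63.0%, against 53.3% for the other 15061 promoters of protein-coding genes and 56.7% for all 21045. Only 1 start was kept for each member. The others therefore include starts of neighbouring genes under a member peak, and can include further starts of member genes. CpG-rich promoters, defined by a GC content above 55% and an observed-to-expected CpG ratio above 0.6, made up 75.4% of member promoters, against 27.4% of the others and 41.1% of all. No sequence value entered the rule, but whether base composition or mappability affects the calling of a peak was not tested.

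Motifs were searched on both strands of the 300 bases. The GC box GGGCGG was in 72.7% of member promoters (exact 95% interval 71.5% to 73.8%), against 36.3% (35.6% to 37.1%) of the others and 46.7% of all. The ETS core CCGGAAG was in 20.6% of members, against 8.15% of the others and 11.7% of all. For the NRF1 core GCATGCGC the shares were 7.17% of members, 2.10% of the others and 3.54% of all. The YY1 core ATGGCGGC was in 5.78% of members and 1.96% of the others (3.05% of all), the cAMP response element TGACGTCA in 4.13% and 1.51% (2.26% of all), and the E-box CACGTG in 11.3% and 6.57% (7.91% of all). The TATA box TATAAA was rarer in members, at 5.38% (4.82% to 5.98%) against 15.5% (14.98% to 16.1%) of the others and 12.7% of all, and so was the AP-1 site TGANTCA, at 3.89% against 8.29% and 7.04% of all. Member promoters are richer in GC, which alone changes the chance of such matches, and its part was not tested. Overlaps between motifs were not removed.

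Among the members, the CCAAT box followed the rank. When the 6013 matched members were divided into quintiles of mean rank, the share with CCAAT was 34.2%, 36.1%, 41.9%, 45.1% and 52.9% in order of rank, low to high, against 38.5% of all promoters. The exact 95% interval of the lowest quintile was 31.5% to 36.9%, and that of the highest reached down to 50.001%. Median GC content was 62.0% in the highest and 64.0% in the lowest quintile. CCAAT was itself more frequent at low than at high GC content, and the part of GC content in the trend was not tested. Within each tertile of GC content the highest quintile also had the larger share, with 58.8% against 42.1% at low, 54.0% against 36.1% at middle and 41.8% against 23.8% at high GC content. In each list taken alone the highest quintile had between 49.4% (D2 SS) and 53.2% (D1 SS), against between 31.1% (D1 SS) and 37.5% (D2 CS) in the lowest. Most of the searched window lies upstream of the start, so only stretches of equal length were compared for position. Between 100 and 51 bases before the start, CCAAT was in 26.4% of promoters of the highest and 12.4% of the lowest quintile. The share there was 18.7% over all members and 14.3% over all promoters. From 0 to 49 bases after the start, the shares were lower, at 5.49%, 3.83%, 4.2% and 4.4% in the same order.

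The NRF1 core had shares of 4.41%, 5.74%, 8.65%, 7.07% and 10.1% from the lowest to the highest quintile, and the GC box 70.2%, 72.5%, 72.8%, 76.0% and 71.4%. The NRF1 core was thus more frequent in the highest quintile (8.42% to 11.9%) than in the lowest (3.32% to 5.72%), while the intervals of the GC box overlapped at both ends (68.8% to 73.9% in the highest and 67.5% to 72.7% in the lowest). Quintiles ordered by q-value in place of fold gave 51.4% for CCAAT in the highest and 31.5% in the lowest. For the GC box this order gave 78.6% (76.1% to 80.8%) in the highest and 68.4% (65.7% to 71.03%) in the lowest, so its share followed the q-value but not the fold. No test was made of these shares, since promoters are not replicates.

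**Figure D4:**
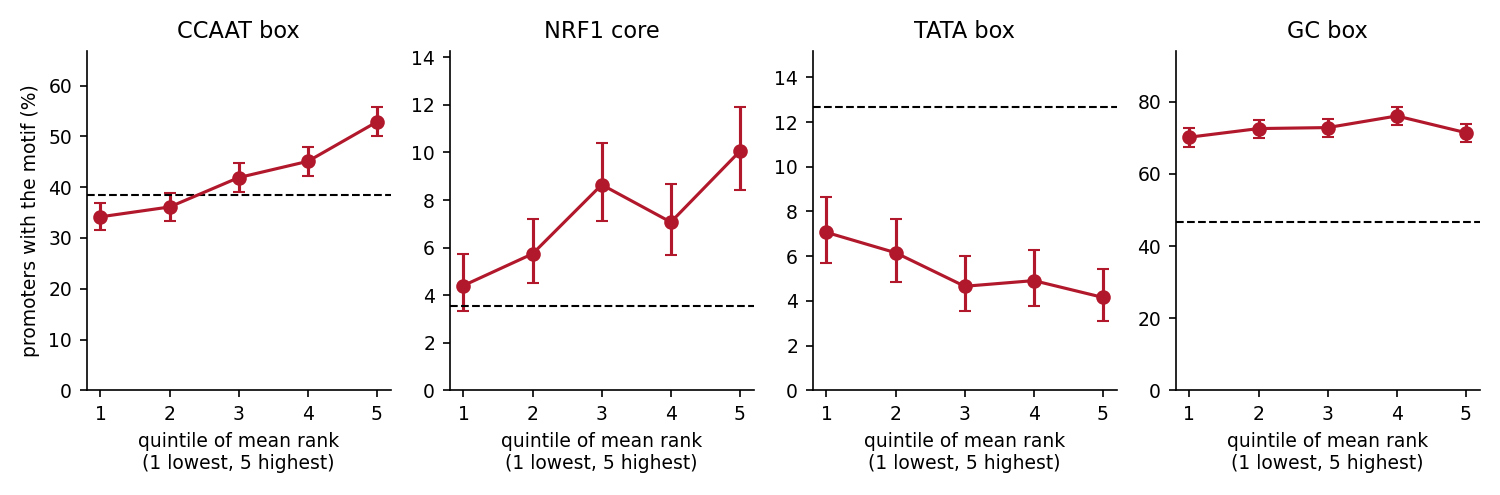
Share of matched constitutive promoters, in percent, that hold a CCAAT box, an NRF1 core, a TATA box or a GC box on either strand of the 300-base window, by quintile of mean rank. Lines through the points are exact 95% binomial intervals and the dashed line is the share over all 21045 promoters; each panel has its own scale, starting at 0. CCAAT is at 34.2% in the lowest and 52.9% in the highest quintile, while the GC box stays between 70.2% and 76.0% (by q-value in place of fold it is at 68.4% in the lowest and 78.6% in the highest).

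Many peaks served more than 1 start. Of 5771 members that covered a start of the table, 953 (16.5%, exact 95% interval 15.6% to 17.5%) covered starts on both strands. These peaks had a median mean rank of 69.5, against 61.8 for the other members that covered a start, and a median width of 868 bp against 799.5 bp. A wider peak can cover more starts, so the difference in width is partly built into this grouping. Whether the starts point away from each other was not checked. A peak over starts of several genes is assigned by the authors to 1 of them, so the gene lists above miss some genes.

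Differences of rank between lists were as frequent among the promoters as among constitutive peaks as a whole, or somewhat less so. A promoter counts here as moved when its rank differed by 20 or more points, and the share over all 17382 constitutive peaks, the promoters included, is the background. With 1 list per group this describes the lists and is no test. Comparisons that share a list, such as those with D1 SS, are not independent of each other.

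Of the D1 comparisons with baseline, D1 SC against D1 SS had 2692 moved promoters (33.2%, background 37.6%), of which 2070 were higher and 622 lower in D1 SC. For D1 CS against D1 SS there were 2582 (31.9%, background 35.5%), with 1837 higher and 745 lower in D1 CS. For D1 CC against D1 SS there were 2989 (36.9%, background 37.6%), with 1668 higher and 1321 lower in D1 CC. When the ranks were taken among the 8101 promoters alone, the split was near even in all 3, with 1252 higher and 1271 lower in D1 SC, 1226 and 1260 in D1 CS, and 1489 and 1544 in D1 CC. Ranks among the promoters alone have the same mean in every list, which favours an even split, so these counts carry no evidence on direction. The splits of ranks among all constitutive peaks are relative to the gene-body and intergenic peaks.

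In D2, SC against SS had 871 moved promoters (10.8%, background 11.8%), with 385 higher and 486 lower in D2 SC, and CC against SS had 1093 (13.5%, background 14.2%), with 502 higher and 591 lower in D2 CC. Both comparisons stay within the patch-poor lists. D2 CS against D2 SS crosses the sets and had 2351 (29.0%, background 33.9%), with 1875 higher and 476 lower in D2 CS, against 983 higher and 1010 lower among promoters alone. For D2 CC against D2 SS, ranks among promoters alone gave 594 higher and 470 lower in D2 CC.

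Set against each other, D1 SC and D2 SC differed at 2455 promoters (30.3%, background 34.8%), with 1915 higher and 540 lower in D1, or 1045 higher and 1061 lower among promoters alone. D1 CS and D2 CS differed at 1738 (21.5%, background 25.4%), with 673 higher and 1065 lower in D1, or 907 and 870 among promoters alone. For D1 CC and D2 CC there were 1295 (16.0%, background 18.7%), with 878 higher and 417 lower in D1, or 685 and 625 among promoters alone. For D1 SS and D2 SS there were 2156 (26.6%, background 27.9%), with 973 higher and 1183 lower in D1.

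Within the patch-rich D1 lists, CC against SC had 2425 moved promoters (29.9%, background 33.4%), with 698 higher and 1727 lower in D1 CC, or 1140 and 1095 among promoters alone. CC against CS had 1585 (19.6%, background 23.4%), with 494 higher and 1091 lower in D1 CC, or 776 and 678 among promoters alone. In none of the 12 comparisons was the share of moved promoters above its background.

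**Figure D5:**
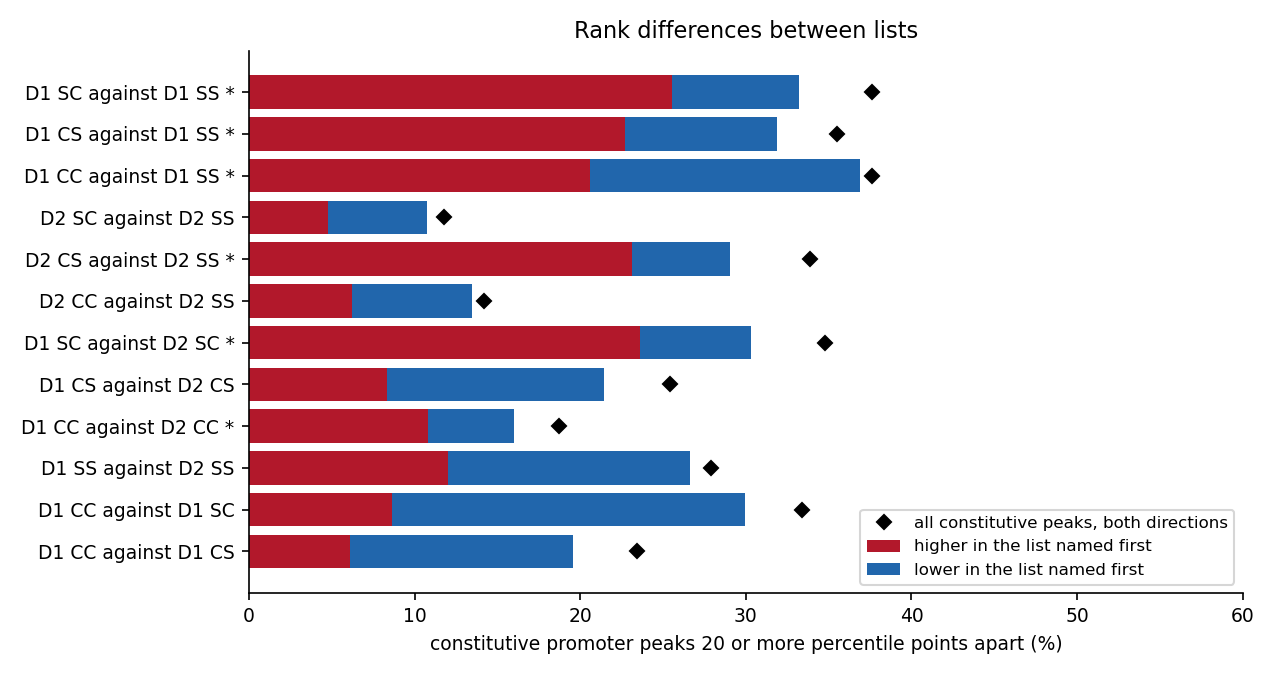
Percent of the 8101 constitutive promoters whose rank differed by 20 or more points between 2 lists, divided into higher and lower in the list named first. Diamonds mark the share of all 17382 constitutive peaks that moved in either direction, and asterisks the comparisons that cross the patch-rich and patch-poor sets. Each bar ends left of its diamond, and the shortest is D2 SC against D2 SS at 10.8%.

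Over all 8 lists, the range of a member's ranks had a median of 34.5 points, against 39.6 for the 9281 other constitutive peaks. It was below 10 for 463 members (5.72%, against 3.02% of the other constitutive peaks). It was 50 or more for 1468 members (18.1%, against 29.3% of the other constitutive peaks). The widest ranges were those of Zfp799, Cmpk1, Ftsj1, Rprd2, Zfp101, Gm5141, Vps13d, Aff2, Mcee and Gm3854. Cmpk1, which phosphorylates UMP and CMP, had ranks of 79.8, 96.7, 98.6 and 3.72 in D1 SC, CS, CC and SS, and 98.7, 99.3, 97.9 and 97.3 in D2 SC, CS, CC and SS. D1 SS alone was low, and there the Cmpk1 peak was 200 bp wide, the smallest width called, against 692 to 1018 bp in the other 7 lists. Rprd2, a binding partner of the RNA polymerase tail, had ranks of 98.4, 92.4, 82.2 and 6.15 in D1 and 90.9, 82.2, 85.2 and 87.4 in D2. Its peak measured 368 bp in D1 SS and between 1265 and 1640 bp elsewhere. For both genes the low rank came with a peak over a fragment of the promoter in D1 SS, and the part of this in the shift was not tested.

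Other named promoters were highest in D1 SS. Jade1, a scaffold of a histone acetyltransferase complex, ranked 5.14, 4.59, 7.30 and 68.3 in D1 SC, CS, CC and SS, and 21.0, 26.7, 11.9 and 17.2 in D2 SC, CS, CC and SS. Its rank was high in D1 SS alone. The POU domain factors Pou3f4 and Pou3f3 were both among the 5 promoters that lay furthest below D1 SS in D1 CC. Pou3f4 ranked 31.2, 35.8, 7.74 and 80.8 in D1 and 27.9, 49.6, 19.6 and 31.5 in D2. Ppargc1a, the coactivator of mitochondrial biogenesis, ranked 23.6, 17.0, 33.7 and 77.4 in D1 and 38.4, 12.5, 23.5 and 38.5 in D2. In all 3 genes the 3 cocaine lists of D1 were below D1 SS, which is patch-poor where they are patch-rich. Within the patch-rich D1 lists, Cbx7, a Polycomb subunit, ranked 91.6, 45.1 and 23.4 in D1 SC, CS and CC. In D2 SC against D2 SS, Gnai2, an inhibitory G protein subunit, ranked 5.57 against 52.8, and Poldip2, a polymerase-interacting mitochondrial protein, 9.43 against 64.1.

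The ranks of the cell types were fully apart at few promoters. The lowest D1 rank was above the highest D2 rank at 123 promoters (1.52%, background 1.63%), and the reverse held at 107 (1.32%, background 1.55%). Both shares are near the background. The 5 largest differences upward in D1 were those of Gm3854, Tjap1, Eid2, Sh2d3c and Uba2. Eid2, an inhibitor of the acetyltransferase EP300, ranked 86.1, 88.9, 63.8 and 71.0 in D1 SC, CS, CC and SS, and 39.4, 45.3, 44.5 and 8.91 in D2 SC, CS, CC and SS. Sh2d3c, an adaptor of receptor tyrosine kinase signalling, ranked 38.8, 67.1, 74.7 and 47.0 in D1 and 18.3, 14.1, 20.0 and 13.3 in D2. In the other direction were Bves, Bmper, Brca2, Sprr1a and Olig1. Bves, a cyclic AMP-binding membrane protein, ranked 7.41, 33.8, 36.9 and 7.76 in D1 and 70.8, 62.4, 80.9 and 84.2 in D2. Olig1, a transcription factor of the oligodendrocyte lineage, ranked 38.4, 44.3, 56.3 and 15.8 in D1 and 84.3, 63.0, 67.0 and 65.0 in D2. The part of other cells in the D2 values was not tested, and of the 12 oligodendrocyte lineage markers Mbp was the other with a member, at ranks of 39.7, 21.9, 5.5 and 10.3 in D1 and 21.6, 19.8, 5.48 and 21.0 in D2. Its D1 and D2 ranks overlapped.

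The patch sets were separated more often. At 671 promoters (8.28%, background 5.62%) the lowest rank of the 4 patch-rich lists was above the highest of the 4 patch-poor lists, and at 111 (1.37%, background 5.97%) the reverse held. Against the background, separation by patch set was thus more frequent upward in patch-rich lists and less frequent downward.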

How the data were processed

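The 26 libraries are represented by 1 ATAC-seq peak list per group. MACS2, SAMtools, HISAT and cutadapt, with no version, and mm10 as the build appear in the submitters' processing notes. Pooling of libraries ahead of peak calling is not given in the sources used here. For every peak the fold enrichment (a ratio over background), its q-value on a linear scale (at most 0.0453) and its distance to the start, in bp, were deposited by the authors. The lists have 0 columns per library, so no test was made and the precision is given by counting error alone.

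Peaks on chromosomes 1 to 19 and X were used. The matching peak was the one with the longest overlap. Widths include both ends. Ranks are percentiles of fold. Gene symbols were matched to RefSeq (GRCm38.p6) for 99.4% of members. The members, gene lists, motifs and alternatives were chosen with earlier results of these data known. Named genes are, 1 peak per gene, the 10 highest and lowest by mean rank, the 5 widest, narrowest and steadiest, the 10 with the widest range, the 5 moved furthest in each direction of a comparison or separated between cell types, and genes of the lists; some of these are not reported here. Alternatives covered overlap, q, list length, starting list, promoter class and ranking. On simulated data, 5000 of 5000 overlaps were recovered. Scripts ran in Python 3.11.15 with scipy 1.17.1, pandas 2.3.3, numpy 2.4.6 and, for figures, matplotlib 3.10.9.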

Additional observations from a re-analysis of the deposited data

Results flagged for a closer look

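The median rank difference of the constitutive promoters had opposite signs in the cell types for 2 comparisons. For SC minus SS it was 5.03 points in D1 and -0.18 points in D2. For CC minus SS it was 0.25 points in D1 and -1.50 points in D2. With 1 list per group the difference between the cell types was not tested, and the D1 comparisons cross the patch-rich and patch-poor lists while the D2 comparisons do not.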

How the results depend on the processing

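No paired analysis was possible because the peak lists hold no column per library and no result comes from a test. The counts of 8101 peaks and 7758 genes stayed within 1.5 times under 17 of 18 alternatives for peaks and 18 of 18 for genes. A reciprocal overlap of 50% left 5276 peaks and 5205 genes, which are 67.1% of the 7758 genes and only just within that limit. The median over the 8 lists of the median percentile, 83.7, was 87.2 when ranked by q-value, 72.4 with lists of equal length and 88.6 with a reciprocal overlap of 50%. The median width, 814.5 bp, was 836 bp and 844 bp under the last 2. Moved promoters were 666 for D2 CC against D2 SS and 1580 for D1 CC against D1 SC by q-value, and with a reciprocal overlap of 50% 1519 for D2 CS against D2 SS, 1543 for D1 SC against D2 SC and 1615 for D1 CC against D1 SC; of the 5276 peaks left these are 28.8%, 29.2% and 30.6%, beside 29.0%, 30.3% and 29.9% of 8101. Promoters separated between cell types were 312 with D1 above and 180 with D1 below by q-value. Within the patch-rich lists alone they were 1583 and 2690, and within the patch-poor lists alone 2885 and 2559, where fewer lists have to be separated. For the moved and separated counts of these alternatives no background over all constitutive peaks was computed. They are therefore not read as differences between lists or cell types. Markers of other cell types with a member, 4, were 9 with all promoter classes within 3 kb and 1 with a reciprocal overlap of 50%. The difference in CCAAT share between the highest and lowest quintile, 18.7 percentage points, was 12.5 in D2 CS alone. The causes of the other shifts were not tested. Alternatives on starting lists for MSN markers, sets of lists, starts covered and motif shares were added after the data were seen. Counting error for a single peak, from the solved pileup at the median fold, was largest in D1 SC (25.1%) and D2 CS (21.6%). Both lists had the weakest fits of the spacing, so these values are uncertain. Whether depth plays a part was not tested.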
